A study of Mus musculus with 9 samples.

Results

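The tumour necrosis factor (TNF) ligand and receptor superfamily was examined in lineage-traced mouse mammary cells. Its members were taken as every gene of the count table whose symbol began with Tnfsf or Tnfrsf and a number, or was Tnf, Lta, Ltb, Ltbr, Fas, Fasl, Cd40, Cd27 or Eda2r. The rule found 41 of the 55450 genes in the table. Of these, 15 were ligands, 25 were receptors, and the remaining 1, Tnfsf13os, was a noncoding gene antisense to the ligand gene Tnfsf13. Enough reads for a test were counted for 34 members. No member was at 0 in every library.

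TNF superfamily ligands are mostly trimeric proteins, held on the cell surface or shed from it, and each binds receptors that carry cysteine-rich repeats. Some receptors hold a death domain inside the cell and can start apoptosis or necroptosis, others recruit TRAF adaptors and switch on NF-kB and MAP kinases, and decoy receptors bind a ligand without passing on its signal. In the mammary gland the best-known pair is RANKL (Tnfsf11) and RANK (Tnfrsf11a), through which hormone-sensing luminal cells answer progesterone and signal to their neighbours, and which is held in check by the soluble decoy osteoprotegerin (Tnfrsf11b).

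RNA was sequenced from live EYFP+ cells sorted out of the mammary glands of adult nulliparous mice, in 3 libraries per genotype and 9 in all. Every mouse carried a tamoxifen-inducible Cre (CreERT2) driven by the Krt8 (K8) promoter, which is active in luminal cells, and a Cre-dependent EYFP reporter, and every mouse received 2 mg of tamoxifen on 5 days and was analysed 7 days after the last dose. Control mice (lsl-EYFP;K8CreERT2) had no floxed gene, the second group (LATS1/2f/f;lsl-EYFP;K8CreERT2, called LATS1/2-KO) had floxed alleles of the Hippo pathway kinases Lats1 and Lats2, and the third (called LATS1/2-Sox9-KO) carried Sox9f/f beside the alleles of the second, that is, floxed alleles of the transcription factor Sox9 as well. The deposited counts summed to between 44167762 and 61967651 per library. The sort selected live EYFP+ cells and named no marker to remove leukocytes or stroma, so a gene's level is that of the sorted population, in which fewer cells of a type and less RNA per cell cannot be told apart. The labels do not say whether the 3 libraries of a genotype came from separate mice, so p-values measure the spread between these libraries, which may be technical.

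Levels are given as normalized counts, meaning counts scaled to the mean effective library size of the 9 libraries, and fold changes come from the quasi-likelihood fit of edgeR, with p-values adjusted as Benjamini and Hochberg describe across all 19357 genes kept by its expression filter. A gene was called higher or lower when its fold exceeded 1 on the log2 scale in either direction with adjusted p no larger than 0.05, and every value after ± beside a log2 fold change is its standard error. The floxed genes were read first. Lats1 stood at 5672, 5928 and 5940.4 in the control libraries, 2090.1, 1923 and 2336 in the libraries labelled LATS1/2-KO and 2058, 1844 and 1709 in those labelled LATS1/2-Sox9-KO. It was lower in both labelled groups without overlap, with log2 fold changes of -1.47 ± 0.11 (edgeR adjusted p = 7.07e-06) and -1.64 ± 0.11 (edgeR adjusted p = 2.8e-06). Lats2 did not follow its label: it stood at 1039, 865 and 1219.7 in control, 1256, 1434 and 1723 in LATS1/2-KO and 1957, 1580.4 and 1239.7 in LATS1/2-Sox9-KO libraries. Sox9 counts were 23313, 19948 and 21534 in control, 7205, 9506 and 12433 in LATS1/2-KO and 8812, 6756 and 6459.8 in LATS1/2-Sox9-KO libraries. They were lower than control under both labels but did not separate the labels from each other, with a log2 fold change of LATS1/2-Sox9-KO against LATS1/2-KO of -0.40 ± 0.19 (edgeR adjusted p = 0.25). Gene counts also take in exons outside a floxed part, which the labels do not give, so they check the deletions only in part, and the groups are named below as the libraries were labelled.

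Control replicate 3, LATS1/2-KO replicate 1 and LATS1/2-Sox9-KO replicate 1 stood apart from their groups in genes that bear on the family. Several calls given below were lost, and some were gained, without 1 of them. Control replicate 3 held 12446 normalized counts of the luminal progenitor marker Kit against 22019 and 21895 in the others, and 40655 of the hormone-sensing marker Prom1 against 12159.9 and 19029.6. LATS1/2-KO replicate 1 held 19239 summed normalized counts of the hormone-sensing markers listed below, against 4546 and 8696 in the others of its group. LATS1/2-Sox9-KO replicate 1 held 22876 of the chemokine gene Cxcl10 against 8604 and 5401. The luminal marker Krt8 was high in every library, between 168814 and 461281. Of the 6 luminal epithelium markers (Krt8, Krt18, Krt19, Epcam, Cldn3, Cldn4), Krt19 was called lower in LATS1/2-KO (-1.03), and in LATS1/2-Sox9-KO Epcam was called lower (-1.30) and Krt8 and Krt18 higher (1.26 and 1.53). The 6 hormone-sensing markers on the list used (Esr1, Pgr, Prlr, Foxa1, Cited1, Prom1) were all called lower in both labelled groups, with a median log2 fold change of -4.72 in LATS1/2-KO and -6.40 in LATS1/2-Sox9-KO. Their summed normalized counts ran from 238670.4 to 315044 in control libraries, from 4546 to 19239 in LATS1/2-KO libraries and from 3896 to 5583 in LATS1/2-Sox9-KO libraries.

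Of the 34 members tested, 9 were higher and 10 lower in LATS1/2-KO than in control, beside 17.1% and 17.5% of all 19357 genes. In LATS1/2-Sox9-KO against the same control libraries, 10 were higher and 9 lower, beside 17.8% and 19.6% of all genes. The median log2 fold change of the members was 0.17 and -0.34, against 0.04 and 0.01 over all tested genes, so the family was split between gains and losses and did not move one way. By role, the ligands had 4 called higher and 3 lower of 12 tested in LATS1/2-KO, the death domain receptors 1 higher and 3 lower of 5, and the decoy receptors 3 higher of 3. Among the 12 tested receptors that recruit TRAF adaptors, 3 were called lower and the other 9 were not called. Between the labelled deletions, LATS1/2-Sox9-KO had 4 members higher than LATS1/2-KO (1.55% of all genes were) and 0 lower (2.16% of all genes were), with a median of 0.09 beside -0.02. By DESeq2 0 members were lower as well, and by edgeR 3 were lower at an unadjusted p under 0.05. These 3 comparisons use the same 9 libraries in pairs of groups, and the 2 comparisons with control share their control libraries.

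**Figure D1:**
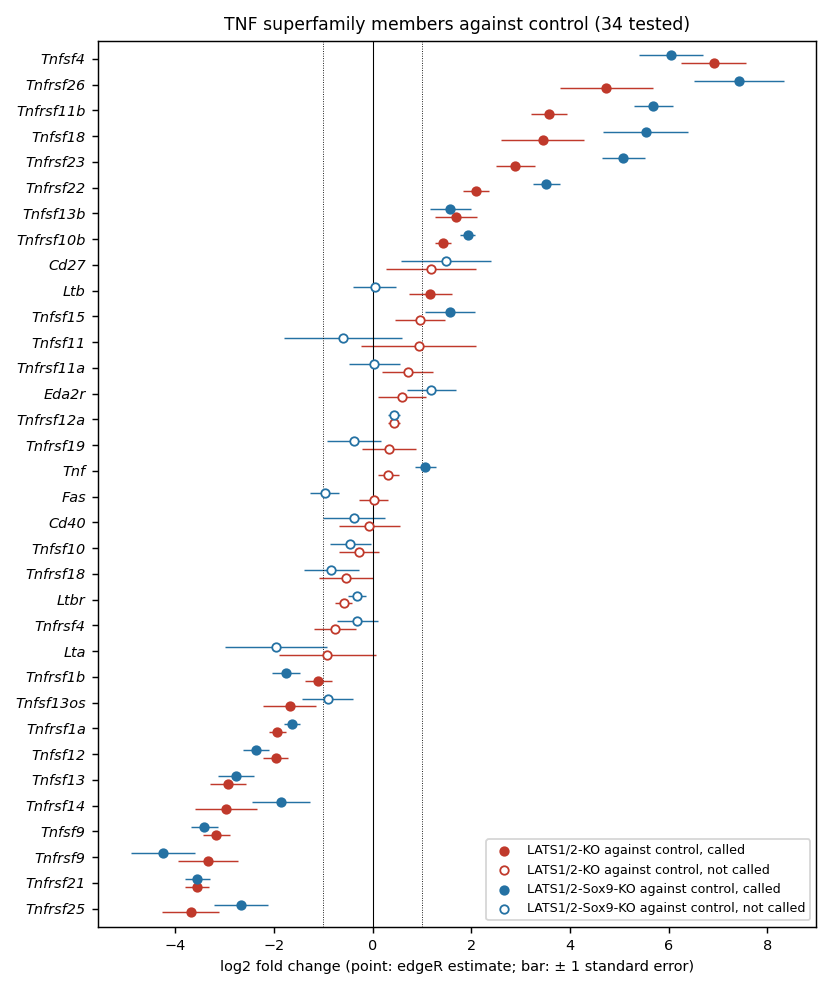
Log2 fold change (horizontal axis) of the 34 tested members in LATS1/2-KO (red) and LATS1/2-Sox9-KO (blue) against the same 3 control libraries, with bars of 1 standard error, dotted lines at -1 and 1, and filled points for members called. In LATS1/2-KO the members run from Tnfrsf25, at -3.68, to Tnfsf4, at 6.91, and 13 members have no filled point.

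The levels of the members covered a wide range. Per kilobase of exon, Tnfrsf12a, the receptor for TWEAK and also known as Fn14, was first in all 3 groups, with 46.8% of the summed level of the members in control, 68.0% in LATS1/2-KO and 54.4% in LATS1/2-Sox9-KO. The next in control were Tnfrsf1a and Tnfrsf21, at 3116 and 3067 normalized counts per kilobase, whose libraries overlapped, followed by Ltbr at 2167 and Tnf at 1206. By the mean, the second in LATS1/2-KO was Tnf, at 1507 per kilobase, whose libraries overlapped those of Ltbr, and in LATS1/2-Sox9-KO it was Tnfrsf23, at 3053, whose libraries overlapped those of Tnf. On the same scale per kilobase, the summed level of the 25 receptors was between 19528 and 23270.1 in control libraries, 19451 and 21504 in LATS1/2-KO libraries and 23511 and 27517 in LATS1/2-Sox9-KO libraries. That of the 15 ligands was between 2981 and 3120.4, 1742 and 2589 and 2469 and 4327, in the same order of groups, and by the mean Tnf was the first ligand in every group, although Tnfsf9 lay above it in control replicates 1 and 3.

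The stretch just before the start of transcription is shown for 3 members that lay in different classes: the decoy receptor Tnfrsf23 and the ligand Tnfsf18, both called higher, and the TNF receptor Tnfrsf1b, called lower in both labelled groups. Each is the 250 bases before the RefSeq start (build GRCm38.p6), written 5′ to 3′ on the gene's own strand, at chr7:143685876-143686125 on the minus strand, chr1:161494407-161494656 on the plus strand and chr4:145246871-145247120 on the minus strand. Capitals mark GGAATG, the core letters bound by the TEAD partners of YAP and TAZ, on either strand (CATTCC when read from the other). The letters TGANTCA of AP-1 and the NF-kB consensus were searched on both strands too and were not found in these 3 stretches.
Tnfrsf23: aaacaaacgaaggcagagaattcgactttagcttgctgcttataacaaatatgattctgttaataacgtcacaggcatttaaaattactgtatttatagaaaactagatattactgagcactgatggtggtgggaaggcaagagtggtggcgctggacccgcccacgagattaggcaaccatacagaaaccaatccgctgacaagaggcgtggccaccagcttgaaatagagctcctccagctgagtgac
Tnfsf18: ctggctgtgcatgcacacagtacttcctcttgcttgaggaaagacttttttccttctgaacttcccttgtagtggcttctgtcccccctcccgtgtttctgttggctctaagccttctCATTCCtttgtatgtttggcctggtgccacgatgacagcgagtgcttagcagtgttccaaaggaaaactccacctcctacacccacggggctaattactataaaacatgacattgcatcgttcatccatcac
Tnfrsf1b: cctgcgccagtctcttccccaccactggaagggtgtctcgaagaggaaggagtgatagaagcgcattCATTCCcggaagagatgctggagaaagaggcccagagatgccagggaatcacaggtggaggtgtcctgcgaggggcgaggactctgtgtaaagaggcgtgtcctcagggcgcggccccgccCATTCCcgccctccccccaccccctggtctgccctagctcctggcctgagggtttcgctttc
Tnfsf18 held a match that began 132 bases before the start, Tnfrsf1b held matches at 183 and 62 bases, and Tnfrsf23 held no match in this window. Of all 32851 promoters of the same length, 12.6% held GGAATG, 6.75% TGANTCA and 7.25% the NF-kB consensus. Promoters were on hand for 32 members, and a TEAD match was found in 1 of the 4 called higher in LATS1/2-KO, in 2 of the 7 called lower and in 3 of the 14 tested but not called. A match describes the letters and not a bound site.

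Among the ligands, Tnfsf4 and Tnfsf18 went from almost no reads in control to clear expression in both labelled groups. Tnfsf4 (OX40L), the ligand of the T cell co-stimulatory receptor OX40, stood at 2.32, 2.27 and 1.25 normalized counts in the control libraries, 381, 150.0 and 222 in LATS1/2-KO and 216, 121 and 73.8 in LATS1/2-Sox9-KO. No library of either labelled group came near the control range, and LATS1/2-KO replicate 1 was the highest. With 5 reads over the 3 control libraries against 801 and 435, the ratio of counts per effective library size was 125 (95% exact interval 53.2 to 385, counting error only) in LATS1/2-KO and 69.7 (29.6 to 216) in LATS1/2-Sox9-KO. The fitted log2 fold changes were 6.91 ± 0.66 (edgeR adjusted p = 2.02e-05) and 6.04 ± 0.65 (edgeR adjusted p = 3.36e-05). Tnfsf18 (GITRL), the ligand of the receptor GITR, stood at 4.64, 9.07 and 0 in control, 102, 19.5 and 34.7 in LATS1/2-KO and 249.7, 239 and 176 in LATS1/2-Sox9-KO. The 3 groups did not overlap, and the LATS1/2-Sox9-KO libraries were the highest. Its fitted log2 fold changes against control, where it is close to 0, were 3.44 ± 0.84 (edgeR adjusted p = 0.00567) and 5.53 ± 0.86 (edgeR adjusted p = 0.000351). The first was 2.51 without LATS1/2-KO replicate 1 and 4.37 without control replicate 2, and the second was 6.47 without control replicate 2. Between the labelled deletions it was 2.09 ± 0.68 (edgeR adjusted p = 0.101), which became a call by DESeq2 (2.09, adjusted p = 0.00677), without the expression filter (2.13, 0.0409) and without LATS1/2-KO replicate 1 (3.03, 0.022).

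Tnf itself, the founding cytokine of the family, stood at 1816, 2227 and 1887 in control, 2933, 1989 and 2489.8 in LATS1/2-KO and 5623, 3541 and 3270.0 in LATS1/2-Sox9-KO libraries. The LATS1/2-KO libraries overlapped control, and the LATS1/2-Sox9-KO libraries lay above both other groups, with replicate 1 well above its own group. Against control the log2 fold change was 0.32 ± 0.22 (edgeR adjusted p = 0.235) in LATS1/2-KO and 1.07 ± 0.22 (edgeR adjusted p = 0.00197) in LATS1/2-Sox9-KO. The second rested on LATS1/2-Sox9-KO replicate 1 for its size: without it the value was 0.80 (edgeR adjusted p = 0.00335), below the fold threshold. The difference between the labelled deletions was 0.75 ± 0.22 (edgeR adjusted p = 0.0723), not past the threshold. Tnfsf15 (TL1A), the ligand of the death receptor DR3, stood at 80, 124 and 74.7 in control, 137, 191 and 213 in LATS1/2-KO and 537, 155 and 134 in LATS1/2-Sox9-KO. LATS1/2-Sox9-KO replicate 1 stood far above the other 8 libraries. The call in LATS1/2-Sox9-KO, 1.57 ± 0.51 (edgeR adjusted p = 0.0239), fell to 0.66 (adjusted p = 0.124) without that library, and was also lost without control replicate 1 (1.47, 0.0731) or control replicate 3 (1.44, 0.0715).

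Tnfsf13b (BAFF), a survival factor for B cells, was called higher in both labelled groups at low levels, 21.6 ± 12.6 (SD, n = 3) in control, 69.7 ± 5.33 in LATS1/2-KO and 64.3 ± 7.58 in LATS1/2-Sox9-KO. Its log2 fold changes were 1.69 ± 0.42 (edgeR adjusted p = 0.00636) and 1.57 ± 0.42 (edgeR adjusted p = 0.00869), and the second was 2.16 without control replicate 3. Ltb (lymphotoxin beta) was called higher in LATS1/2-KO alone, at 80 ± 25.3 against 35.5 ± 7.08. Its adjusted p by edgeR, 0.0445, lay just inside the threshold and rose to as much as 0.122 when single libraries were left out, and it was lost without the expression filter, without any of the 3 control libraries, without LATS1/2-KO replicate 1 or 3, and without LATS1/2-Sox9-KO replicate 3, with log2 fold changes of 1.03 to 1.40 over all 9 such fits. Whether Ltb differed between the labelled groups was tested and did not pass (-1.13 ± 0.44 (edgeR adjusted p = 0.159)).

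**Figure D2:**
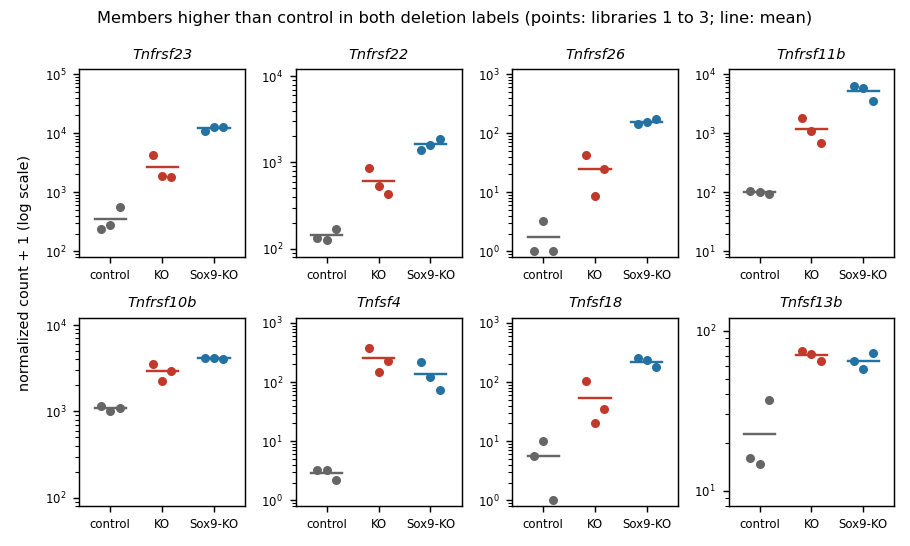
Normalized count plus 1 on a log axis in each of the 9 libraries for the 8 members called higher than control under both labels, with the mean as a line. For every member shown all labelled deletion libraries lie above the 3 control libraries, and for all but Tnfsf4 and Tnfsf13b the LATS1/2-Sox9-KO libraries lie above the LATS1/2-KO libraries.

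The ligands that were lower came from 2 places in the genome. Tnfsf9 (4-1BBL), at chr17:57105325-57107757 (GRCm38, plus strand), the ligand of the co-stimulatory receptor 4-1BB, stood at 1453, 1131 and 1511 in control, 135, 138 and 183 in LATS1/2-KO and 177, 98.7 and 109 in LATS1/2-Sox9-KO. Both labelled groups lay far below control and overlapped each other. On the log2 scale the differences from control were -3.16 ± 0.26 (edgeR adjusted p = 1.01e-05) and -3.41 ± 0.27 (edgeR adjusted p = 5.12e-06), and 11.5% of the 50-base runs in its transcripts also occur in the noncoding gene Gm11110 on the other strand. Its receptor gene Tnfrsf9 (4-1BB) fell as well, from 71.9, 80.5 and 263 in control to 15, 8.47 and 17.3 in LATS1/2-KO and 5.57, 4.98 and 10.9 in LATS1/2-Sox9-KO. Control replicate 3 was more than the other control libraries together, yet every labelled deletion library was below the lowest control. The log2 fold changes of Tnfrsf9 were -3.34 ± 0.61 (edgeR adjusted p = 0.00115) and -4.24 ± 0.65 (edgeR adjusted p = 0.000334), and without control replicate 3 they were -2.49 and -3.38, still called.

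Tnfsf12 (TWEAK), the ligand of Tnfrsf12a, stood at 540.5, 556 and 439 in control, 148, 108 and 138 in LATS1/2-KO and 124, 71.7 and 103 in LATS1/2-Sox9-KO. Neither labelled group overlapped control. Its log2 fold changes were -1.96 ± 0.25 (edgeR adjusted p = 0.000131) and -2.36 ± 0.26 (edgeR adjusted p = 3.75e-05). The neighbouring gene Tnfsf13 (APRIL), which acts on B cells and plasma cells, stood at 399, 357 and 338 in control, 65.2, 24.6 and 53.8 in LATS1/2-KO and 43.6, 68.8 and 48.3 in LATS1/2-Sox9-KO. The labelled groups overlapped each other and not control. Tnfsf13 had log2 fold changes of -2.93 ± 0.37 (edgeR adjusted p = 0.000108) and -2.77 ± 0.37 (edgeR adjusted p = 0.000124). Both genes share sequence with the annotated readthrough gene Tnfsfm13: 46.8% of the 50-base runs in Tnfsf12 transcripts and 57.3% of those in Tnfsf13 transcripts also occur there, so reads may have been lost to or from either. Tnfsfm13 stood at 102, 86.2 and 98.3 in control, 46.1, 37.3 and 63.8 in LATS1/2-KO and 4.64, 29.9 and 5.46 in LATS1/2-Sox9-KO, called lower in the last (-2.84 ± 0.65 (edgeR adjusted p = 0.0037)) and not in LATS1/2-KO (-0.96 ± 0.59 (edgeR adjusted p = 0.196)). The antisense gene Tnfsf13os was called lower in LATS1/2-KO (-1.68 ± 0.53 (edgeR adjusted p = 0.022)) and not in LATS1/2-Sox9-KO (-0.91 ± 0.52 (edgeR adjusted p = 0.16)). The first call was lost without control replicate 2 and without LATS1/2-KO replicate 3. Over the fits without 1 library its log2 fold change ran between -1.95 and -0.99. The second value was -0.22 (edgeR adjusted p = 0.748) without control replicate 2. With a kit that does not mark strand, reads of Tnfsf13os cannot be told from those of Tnfsf13 where they overlap.

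The ligands of the death receptors Tnfrsf10b and Fas were not called. Tnfsf10 (TRAIL), which triggers apoptosis through Tnfrsf10b, stood at 949.9, 1074 and 362 in control, 723, 701 and 550.0 in LATS1/2-KO and 913, 432 and 399.9 in LATS1/2-Sox9-KO. The 3 groups overlapped, and control replicate 3 was the lowest of all 9. The log2 fold changes, -0.27 ± 0.41 (edgeR adjusted p = 0.6) and -0.45 ± 0.41 (edgeR adjusted p = 0.375), did not pass the threshold, and the first has an approximate 95% interval (normal approximation) of -1.08 to 0.53. Fasl, the ligand of Fas, did not reach the expression filter, with normalized counts of 2.32, 3.4 and 6.22 in control, 17.1, 6.78 and 9.12 in LATS1/2-KO and 5.57, 3.99 and 6.38 in LATS1/2-Sox9-KO. No library had more than 17 reads of it, and it was not called by DESeq2 or by edgeR without the filter. Lta (lymphotoxin alpha), with normalized counts from 2.54 to 38.6, was not called in any comparison, at -0.92 ± 0.98 (edgeR adjusted p = 0.454) in LATS1/2-KO and -1.95 ± 1.03 (edgeR adjusted p = 0.13) in LATS1/2-Sox9-KO. Without LATS1/2-KO replicate 1 the first was -2.88 (adjusted p = 0.0256) and the second -1.95 (0.0476), both calls, and the second was also called when only its own groups were fitted (-1.94, 0.0445). Without LATS1/2-Sox9-KO replicate 1 the second was -3.16 and not called (0.056).

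Of the 5 death domain receptors, 3 were called lower under both labels and 1 higher. Tnfrsf21 (DR6), at chr17:43016555-43089189 (GRCm38, plus strand), which can induce apoptosis, stood at 13082, 12604 and 12122 in control, 1299.8, 665 and 1240.4 in LATS1/2-KO and 1269.9, 911 and 1047 in LATS1/2-Sox9-KO. The control libraries were tightly grouped and roughly an order of magnitude above the other 6, which overlapped. Against control, log2 fold changes of Tnfrsf21 were -3.56 ± 0.25 (edgeR adjusted p = 4.15e-06) and -3.55 ± 0.25 (edgeR adjusted p = 2.8e-06). Tnfrsf1a (TNFR1), the main receptor for soluble TNF, stood at 9134, 8102 and 6983 in control, 1867, 1882 and 2619 in LATS1/2-KO and 2947, 2483 and 2356 in LATS1/2-Sox9-KO. Every labelled deletion library was below the lowest control. Its log2 fold changes were -1.93 ± 0.17 (edgeR adjusted p = 1.29e-05) and -1.64 ± 0.17 (edgeR adjusted p = 2.36e-05). Tnfrsf25 (DR3), the receptor of Tnfsf15, stood at 168, 147 and 185 in control, 20.1, 2.54 and 16.4 in LATS1/2-KO and 20.4, 27.9 and 30.1 in LATS1/2-Sox9-KO. The groups did not overlap control, and levels under both labels were low. Tnfrsf25 had log2 fold changes of -3.68 ± 0.58 (edgeR adjusted p = 0.000425) and -2.67 ± 0.54 (edgeR adjusted p = 0.00192).

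The receptors that bind FADD directly, Tnfrsf10b and Fas, were not among those called lower. Tnfrsf10b (DR5), the mouse death receptor for TRAIL, stood at 1156, 998 and 1095 in control, 3524, 2274 and 2943 in LATS1/2-KO and 4132, 4131 and 4094 in LATS1/2-Sox9-KO. The 3 groups followed each other without overlap, and the LATS1/2-Sox9-KO libraries were almost equal. Against control, log2 fold changes were 1.43 ± 0.15 (edgeR adjusted p = 4.28e-05) and 1.93 ± 0.16 (edgeR adjusted p = 6.12e-06), and between the labelled deletions 0.50 ± 0.15 (edgeR adjusted p = 0.0796), which did not pass. Fas stood at 464, 413 and 338 in control, 598, 364 and 273 in LATS1/2-KO and 249.7, 192 and 178 in LATS1/2-Sox9-KO. LATS1/2-KO overlapped control on both sides, and the LATS1/2-Sox9-KO libraries were all lower than both. Against control the values were 0.02 ± 0.29 (edgeR adjusted p = 0.956) and -0.97 ± 0.29 (edgeR adjusted p = 0.017), the second short of the fold threshold alone. It was -1.07 (adjusted p = 0.0188) without control replicate 3 and -1.11 (0.0203) without LATS1/2-Sox9-KO replicate 1, both calls. The first changed sign with the scaling, so no direction is given for it.

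The 3 decoy receptors were called higher in all 3 comparisons, with median log2 fold changes of 2.89, 5.08 and 2.12, and with Tnfrsf26 they were the 4 members called between the labelled deletions. Tnfrsf23 and Tnfrsf22 are mouse decoy receptors for TRAIL that lack a death domain and lie next to each other on chromosome 7. Tnfrsf23 stood at 237, 279 and 558 in control, 4241, 1886 and 1819 in LATS1/2-KO and 10889, 12501 and 12900.4 in LATS1/2-Sox9-KO. The groups followed each other without overlap. Its log2 fold changes against control were 2.89 ± 0.40 (edgeR adjusted p = 0.000191) and 5.08 ± 0.44 (edgeR adjusted p = 8.39e-06), which are fitted ratios of 7.41 and 33.9. From LATS1/2-KO to LATS1/2-Sox9-KO it was higher by 2.19 ± 0.38 (edgeR adjusted p = 0.0134). Without LATS1/2-KO replicate 3 this was 1.98 and missed the threshold (adjusted p = 0.0527). Tnfrsf22 stood at 132, 125 and 168 in control, 856, 529 and 433 in LATS1/2-KO and 1401, 1611 and 1854 in LATS1/2-Sox9-KO. Its groups were in the same order without overlap. In log2 terms the differences from control were 2.10 ± 0.26 (edgeR adjusted p = 0.00011) and 3.52 ± 0.28 (edgeR adjusted p = 5.13e-06) and that between the labelled deletions was 1.42 ± 0.25 (edgeR adjusted p = 0.0141). The last was 1.46 and missed the threshold (adjusted p = 0.0522) without LATS1/2-Sox9-KO replicate 2. These genes resemble each other: 719 of the 50-base runs in their transcripts are shared between them, and 27.4% of the runs in Tnfrsf22 and 19.3% of those in Tnfrsf23 occur in some other gene. Only uniquely aligned pairs were counted, so pairs that fit both genes equally would be left out, and the levels of both are uncertain to that extent.

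Tnfrsf26, a further receptor gene of the same chromosomal group, stood at 0, 2.27 and 0 in control, 41.1, 7.62 and 23.7 in LATS1/2-KO and 139, 152 and 175 in LATS1/2-Sox9-KO. It was almost absent from control and highest in LATS1/2-Sox9-KO, with no overlap between any groups. With 2 reads in all control libraries, the ratio of counts per effective library size was 29.6 (95% exact interval 7.91 to 249, counting error only) in LATS1/2-KO and 198 (54.5 to 1639) in LATS1/2-Sox9-KO. The fitted log2 fold changes against control, 4.73 ± 0.94 (edgeR adjusted p = 0.00182) and 7.42 ± 0.91 (edgeR adjusted p = 7.76e-05), became 7.61 and 10.3 without control replicate 2, which held both control reads, and the first became 4.12 without LATS1/2-KO replicate 1. The difference between the labelled deletions, 2.69 ± 0.62 (edgeR adjusted p = 0.0337), was the least stable of the 4: it missed the threshold without LATS1/2-KO replicate 2 (2.29, adjusted p = 0.0566) or 3 (2.68, 0.106) and without LATS1/2-Sox9-KO replicate 1 (2.79, 0.0712), 2 (2.74, 0.102) or 3 (2.61, 0.0933), and was 3.31 and called without LATS1/2-KO replicate 1.

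Tnfrsf11b (osteoprotegerin), at chr15:54250619-54278484 (GRCm38, minus strand), the soluble decoy that binds RANKL and TRAIL, stood at 106, 101 and 92.1 in control, 1810.3, 1070.1 and 677 in LATS1/2-KO and 6183, 5697 and 3557 in LATS1/2-Sox9-KO. The control libraries were close together, the LATS1/2-KO libraries were spread, with replicate 1 the highest, and the LATS1/2-Sox9-KO libraries were all higher. Compared with control, its log2 fold changes were 3.57 ± 0.36 (edgeR adjusted p = 3.13e-05) and 5.69 ± 0.40 (edgeR adjusted p = 2.76e-06), which are fitted ratios of 11.9 and 51.6. Between the labelled deletions it was higher by 2.12 ± 0.33 (edgeR adjusted p = 0.00883), with adjusted p at most 0.0387 when any 1 library was left out. When the test asked for a fold above 2 (glmTreat), none of the 4 differences between the labelled deletions passed, with adjusted p from 0.146 to 0.612.

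Among the receptors that recruit TRAF adaptors, the most abundant moved little and several lesser ones fell. Tnfrsf12a stood at 24516, 21932 and 19876 in control, 29108, 29104 and 31586 in LATS1/2-KO and 33768, 28535 and 27494 in LATS1/2-Sox9-KO. Both labelled groups lay above control without overlap and overlapped each other. The log2 fold changes, 0.44 ± 0.12 (edgeR adjusted p = 0.00968) and 0.44 ± 0.12 (edgeR adjusted p = 0.00908), were past the threshold on p and short of it on fold. With an offset for each gene's GC content they were 1.01 and 0.89, so the first became a call under that correction. Tnfrsf1b (TNFR2), the receptor for membrane-bound TNF, stood at 1739, 1486 and 939.7 in control, 748, 484 and 711 in LATS1/2-KO and 542, 361 and 334 in LATS1/2-Sox9-KO. Every labelled deletion library was below the lowest control, which was replicate 3. The log2 fold changes were -1.10 ± 0.28 (edgeR adjusted p = 0.00709) and -1.75 ± 0.28 (edgeR adjusted p = 0.000467). The first fell short of the fold threshold without control replicate 1 (-0.90), without LATS1/2-KO replicate 2 (-0.94) and with the GC offset (-0.78).

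Tnfrsf14 (HVEM), the receptor of LIGHT and a ligand of BTLA, stood at 196, 261 and 260.1 in control, 64.2, 15.2 and 12.8 in LATS1/2-KO and 106, 41.9 and 50.1 in LATS1/2-Sox9-KO. It was lower under both labels without overlap with control, and LATS1/2-KO replicate 1 stood above its group. Tnfrsf14 had log2 fold changes of -2.97 ± 0.62 (edgeR adjusted p = 0.00253) and -1.85 ± 0.59 (edgeR adjusted p = 0.021). The first was -4.07 without LATS1/2-KO replicate 1. The second missed the threshold without control replicate 2 (-1.79, adjusted p = 0.0539) and without LATS1/2-Sox9-KO replicate 2 (-1.60, 0.0779) or 3 (-1.68, 0.0736), and the difference between the labelled deletions, 1.11 ± 0.60 (edgeR adjusted p = 0.313), became 2.22 (adjusted p = 0.0232) without LATS1/2-KO replicate 1. Ltbr, the lymphotoxin beta receptor, was not called in either labelled group, at 5100.1 ± 389 (SD, n = 3) in control, 3402 ± 927 in LATS1/2-KO and 4099.7 ± 117 in LATS1/2-Sox9-KO, with log2 fold changes against control of -0.58 ± 0.18 (edgeR adjusted p = 0.0167) and -0.32 ± 0.17 (edgeR adjusted p = 0.149). With the GC offset these were 0.028 and 0.21, of the opposite sign and not called.

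The other 6 receptors of this kind that were tested and not called (Cd27, Cd40, Eda2r, Tnfrsf4, Tnfrsf18 and Tnfrsf19) had log2 fold changes against control from -0.84 to 1.49, and several of these values rested on single libraries. In LATS1/2-Sox9-KO, Cd27 moved from 1.49 to 2.13 without control replicate 1 and Cd40 from -0.37 to -1.40 without LATS1/2-Sox9-KO replicate 1, neither a call. In LATS1/2-KO, Tnfrsf18 moved from -0.54 to -1.14 without LATS1/2-KO replicate 1, and Tnfrsf19 from 0.33 to 1.10 without control replicate 3 and to -0.33 without LATS1/2-KO replicate 1, again with no call. Eda2r, the receptor of an ectodysplasin isoform, was the most abundant of these, and its values of 349, 478 and 1165 in control, 1737, 579.5 and 703 in LATS1/2-KO and 1236, 1744 and 1563 in LATS1/2-Sox9-KO show control replicate 3 well above its group. Its log2 fold change in LATS1/2-Sox9-KO was 1.19 ± 0.49 (edgeR adjusted p = 0.0617), and without control replicate 3 it was 1.88 and passed, as it did by DESeq2, without the filter, with only its own groups fitted, and without LATS1/2-KO replicate 1 or 2. In LATS1/2-KO it was 0.60 ± 0.49 (edgeR adjusted p = 0.326), and it moved with single libraries, to 1.26 (adjusted p = 0.0387) and a call without control replicate 3 and to -0.04 (adjusted p = 0.94) without LATS1/2-KO replicate 1. The 7 members left out by the expression filter (Fasl, Tnfsf8, Tnfsf14, Tnfrsf8, Tnfrsf13b, Tnfrsf13c and Tnfrsf17) had at most 17 reads in any library. They include the receptors of BAFF and APRIL on B cells (Tnfrsf13b, Tnfrsf13c, Tnfrsf17).

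**Figure D3:**
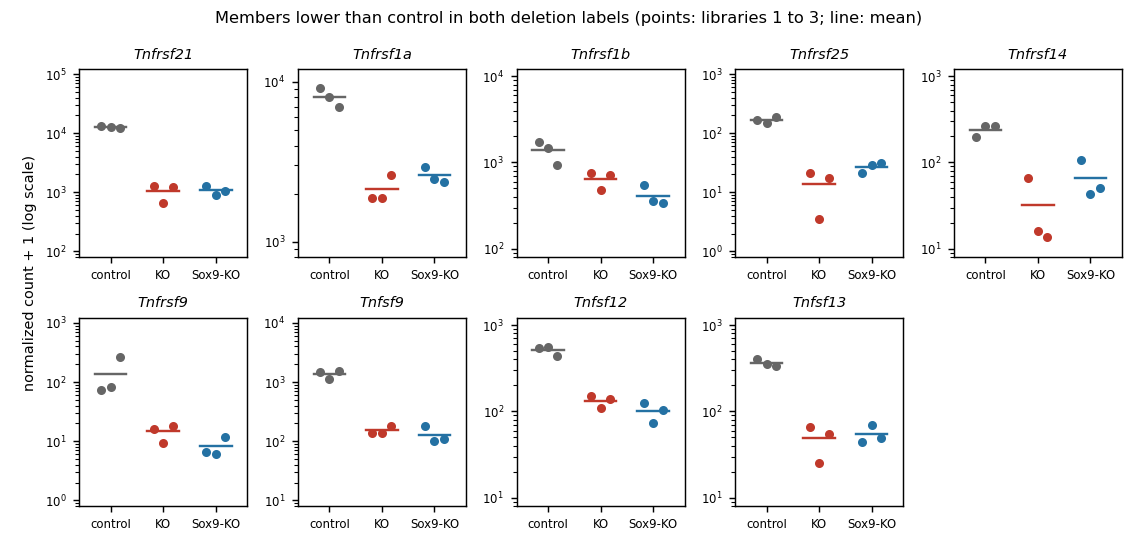
Normalized count plus 1 on a log axis in each of the 9 libraries for the 9 members called lower than control under both labels, with the mean as a line. In all 9 panels every labelled deletion library lies below the lowest control library, and Tnfrsf21 has the largest distance in counts.

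Of the RANK axis, whose decoy Tnfrsf11b is described above, neither the ligand nor the receptor gene was called. The ligand Tnfsf11 (RANKL) stood at 68.4, 6.8 and 4.98 in control, 24.1, 5.08 and 125 in LATS1/2-KO and 21.4, 6.97 and 24.6 in LATS1/2-Sox9-KO. Control replicate 1 and LATS1/2-KO replicate 3 held most of their groups' counts, and the groups overlapped. The log2 fold changes of 0.94 ± 1.16 (edgeR adjusted p = 0.522) and -0.60 ± 1.19 (edgeR adjusted p = 0.692) were not past the threshold, and they changed sign when 1 library was left out, to -0.88 without LATS1/2-KO replicate 3 and to 1.56 without control replicate 1. The receptor Tnfrsf11a (RANK) stood at 530.1, 401 and 109.5 in control, 298, 659 and 749.7 in LATS1/2-KO and 472, 328 and 267 in LATS1/2-Sox9-KO. The groups overlapped, with control replicate 3 the lowest library. Its log2 fold changes were 0.71 ± 0.52 (edgeR adjusted p = 0.271) and 0.03 ± 0.52 (edgeR adjusted p = 0.962), with approximate 95% intervals of -0.30 to 1.73 and -0.98 to 1.05.

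The 11 genes listed for the RANK axis of the gland take in hormone receptors and other genes of the hormone response, and not all lie upstream or downstream of RANK. Of the 11, 7 were called lower and 1 higher in LATS1/2-KO, and 8 lower and 1 higher in LATS1/2-Sox9-KO. Beside them, 17.1% of all genes were higher and 17.5% lower in the first comparison, and 17.8% and 19.6% in the second. Their medians were -1.90 and -1.47. Esr1, Pgr and Prlr are on the list of hormone-sensing markers as well. Pgr, the progesterone receptor, stood at 17143, 20895 and 30018 in control, 658, 121 and 358 in LATS1/2-KO and 43.6, 15.9 and 44.6 in LATS1/2-Sox9-KO. The 3 groups did not overlap and fell in that order. Pgr had log2 fold changes of -5.91 ± 0.60 (edgeR adjusted p = 2.99e-05), -9.34 ± 0.72 (edgeR adjusted p = 4.48e-06) and, between the labelled deletions, -3.43 ± 0.60 (edgeR adjusted p = 0.0136), the last not called without LATS1/2-Sox9-KO replicate 2 (-3.06, adjusted p = 0.0589). The prolactin receptor gene Prlr (-4.81 and -6.30 against control), the estrogen receptor gene Esr1 (-3.50 and -3.67), the paracrine ligand genes Areg (-3.25 and -3.21) and Wnt4 (-1.90 and -1.47), the peptide gene Calca (-5.52 and -7.73) and the transcription factor gene Cebpb (-1.57 and -1.11) were called lower under both labels. Calca stood at 7428, 5279.9 and 295 in control, 29.1, 30.5 and 222 in LATS1/2-KO and 31.6, 11 and 18.2 in LATS1/2-Sox9-KO. Control replicate 3 was far below the other control libraries, and LATS1/2-KO replicate 3 came close to it. Without control replicate 3 the log2 fold changes of Calca were -6.09 and -8.27, without control replicate 1 they were -4.89 and -7.09, and without LATS1/2-KO replicate 3 the first was -7.17. Without LATS1/2-KO replicate 1 the values in LATS1/2-KO were -6.56 for Pgr, -5.55 for Prlr and -3.92 for Areg. Cebpb in LATS1/2-Sox9-KO fell short of the fold threshold without control replicate 2 (-0.97) or LATS1/2-Sox9-KO replicate 3 (-0.98). Elf5, a transcription factor of alveolar progenitors, was lower in LATS1/2-Sox9-KO (-1.45 ± 0.35 (edgeR adjusted p = 0.00558)) and not called in LATS1/2-KO (-0.35 ± 0.35 (edgeR adjusted p = 0.426)). The difference between those labels was not past the threshold (-1.10 ± 0.35 (edgeR adjusted p = 0.0965)), and it was -1.08 (adjusted p = 0.0299) and a call without control replicate 3. Id2, an inhibitor of helix-loop-helix factors, went the other way, from 1419.7, 1412 and 1445 in control to 2728, 4126 and 3068 in LATS1/2-KO and 9849, 13288 and 10226 in LATS1/2-Sox9-KO. Its groups were in rising order without overlap, with 1.21 ± 0.17 (edgeR adjusted p = 0.0002) against control and 1.75 ± 0.17 (edgeR adjusted p = 0.00147) between the labelled deletions. Ccnd1 (0.32 and 0.83) and Rspo1 (0.24 and 0.35) were not called in any comparison, but Ccnd1 in LATS1/2-Sox9-KO was 1.01 and a call without LATS1/2-Sox9-KO replicate 1.

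Members that lie within 1 Mb of each other on a chromosome were set side by side. On chromosome 7, Tnfrsf26, Tnfrsf22 and Tnfrsf23 span 78.2 kb (GRCm38, 143607659 to 143685872), all on the minus strand, and all 3 were higher in all 3 comparisons. On chromosome 1, Tnfsf4 and Tnfsf18, at 161395409 to 161418410 and 161494655 to 161505290 on the plus strand, were higher under both labels, and the third gene there, Fasl, was not tested. On chromosome 11, Tnfsf12 and Tnfsf13, in a group that spans 13.7 kb with Tnfsf13os, were lower under both labels. Both share sequence with Tnfsfm13, as described above. Other groups with more than 1 tested member did not share a call. Of the 3 genes on chromosome 6, spanning 129.9 kb, Tnfrsf1a was lower while Ltbr and Cd27 were not called. Of Ltb, Tnf and Lta on chromosome 17, which span 10.9 kb, Ltb was called in LATS1/2-KO alone, Tnf in LATS1/2-Sox9-KO alone, and Lta in neither. Tnfrsf4 and Tnfrsf18 on chromosome 4 were not called. In the pairs of Tnfsf9 with Tnfsf14, Tnfsf15 with Tnfsf8 and Tnfrsf1b with Tnfrsf8, only the first gene was tested.

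**Figure D4:**
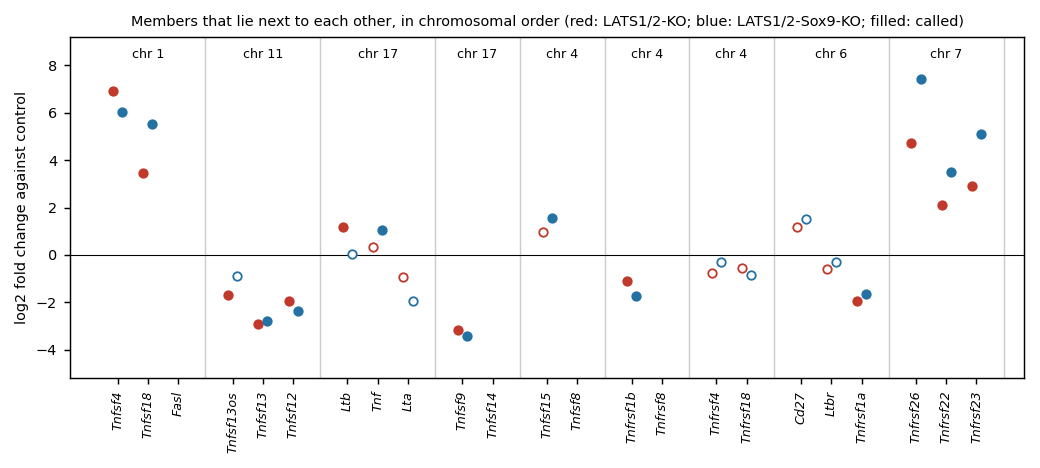
Log2 fold change against control of members that have another member within 1 Mb, in chromosomal order, in LATS1/2-KO (red) and LATS1/2-Sox9-KO (blue), with filled points for calls and no point for members not tested. The 3 genes of chromosome 7 and the 2 tested genes of chromosome 1 lie above 0, and the 3 genes of chromosome 11 lie below it.

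Downstream of the receptors, the calls among genes of NF-kB itself were losses and most of those on a list of its target genes were gains. That list is not complete: feedback genes of the pathway, among them Bcl3 and Nfkbie, and the subunit genes were listed apart. All lists were chosen with earlier results of these data known, so the contrast depends on how they were drawn. Of 13 genes for NF-kB subunits and their activating kinases, 6 were called lower in each labelled group against control and the other 7 were not called, beside 17.5% and 19.6% of all genes called lower. Their medians were -0.52 and -0.58. The 6 were all 5 subunit genes (Rela, Relb, Rel, Nfkb1 and Nfkb2) and Map3k14, which encodes the kinase NIK of the alternative pathway. Rela stood at 16482, 15705 and 13512 in control, 4268, 3930.4 and 5741 in LATS1/2-KO and 6461, 4940.4 and 4375 in LATS1/2-Sox9-KO. Control did not overlap either labelled group, with log2 fold changes of -1.71 ± 0.18 (edgeR adjusted p = 4.24e-05) and -1.53 ± 0.18 (edgeR adjusted p = 6.59e-05). Nfkb1 (-1.62 and -1.83) and Nfkb2 (-1.61 and -1.22) were lower as well, while the IKK genes Chuk, Ikbkb and Ikbkg were not called.

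Among 9 inhibitors and feedback genes of the pathway, 5 were called lower in LATS1/2-KO and the other 4 were not called, and 5 were lower and 1 higher in LATS1/2-Sox9-KO, beside the same shares of all genes. Their medians were -1.13 and -1.24. Bcl3, an IκB-like co-factor of NF-kB, stood at 9307, 8097 and 7474 in control, 752, 472 and 698 in LATS1/2-KO and 901, 525 and 669 in LATS1/2-Sox9-KO. The control libraries were about an order of magnitude above the rest, and the log2 fold changes were -3.69 ± 0.24 (edgeR adjusted p = 3.14e-06) and -3.57 ± 0.24 (edgeR adjusted p = 2.32e-06). Nfkbid (-1.59 and -1.64) and Nfkbie (-1.42 and -1.49) were lower as well, the first of Nfkbie not called without control replicate 1 (-1.17, edgeR adjusted p = 0.0521). The gene called higher in LATS1/2-Sox9-KO was Tnfaip3, which encodes the feedback inhibitor A20 and was named after its values were seen, at 1.30 ± 0.27 (edgeR adjusted p = 0.00197). Without LATS1/2-Sox9-KO replicate 1 it was 0.88 and not called. In LATS1/2-KO it was 0.99 ± 0.26 (edgeR adjusted p = 0.00933), just under the fold threshold, and it was called in 4 of the 9 fits without 1 library, at 1.02 to 1.04.

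Of 22 NF-kB target genes, 13 were called higher and 3 lower in LATS1/2-KO, and 12 higher and 2 lower in LATS1/2-Sox9-KO, beside 17.1% and 17.5%, and 17.8% and 19.6%, of all genes. Their medians were 1.56 and 2.07. Over the fits without 1 library, 9 to 12 were higher in LATS1/2-KO and 12 to 13 in LATS1/2-Sox9-KO. Several of the calls of higher genes in LATS1/2-KO were lost when single libraries were left out. Of the 9 fits without 1 library, 7 did not call Vcam1, whose log2 fold change of 1.64 was 0.38 without LATS1/2-KO replicate 1. Likewise 6 did not call Cxcl5 and 5 did not call Mmp9. Lcn2 was not called in 2 (without control replicate 3 or LATS1/2-KO replicate 2). Saa3 was not called in 2 (without control replicate 1 or 2), and its 3.78 was 7.59 without control replicate 3. In the fits without a call, Cxcl5 was at 1.13 to 1.71 (1.55 in the main fit) and Mmp9 at 3.21 to 3.9 (3.46). Saa3 was at 3.21 to 3.22 there, so these 3 genes missed the threshold on adjusted p and not on fold. Lcn2 was at 0.75 to 0.89 (1.08), short of the fold threshold. Ptgs2, which encodes the prostaglandin synthase COX-2, stood at 1335, 1051 and 2227 in control, 67139, 41212 and 39548 in LATS1/2-KO and 70525, 62683 and 68109 in LATS1/2-Sox9-KO. Every labelled deletion library was far above every control, at 5.0 ± 0.32 (edgeR adjusted p = 3.11e-06) and 5.45 ± 0.33 (edgeR adjusted p = 1.42e-06). The chemokine gene Ccl2 went from 30.2, 31.8 and 11.2 in control to 241, 586 and 706 in LATS1/2-KO and 642, 551 and 476 in LATS1/2-Sox9-KO, 4.37 ± 0.48 (edgeR adjusted p = 4.89e-05) and 4.50 ± 0.48 (edgeR adjusted p = 3.36e-05). Both labelled groups were above control and overlapped. Ccl5, a chemokine for T cells, went from 15.1, 60.1 and 23.6 in control to 378, 685 and 556 in LATS1/2-KO and 7218, 2694 and 1707 in LATS1/2-Sox9-KO, 4.02 ± 0.64 (edgeR adjusted p = 0.000476) and 6.86 ± 0.70 (edgeR adjusted p = 2.35e-05). The LATS1/2-Sox9-KO libraries were the highest, replicate 1 most of all, and without it the second value was 6.07. The first was 4.80 without control replicate 2, and the second then 7.64. These genes also answer to other pathways, among them interferon signalling for Ccl5 and Cxcl10. The 3 lower in LATS1/2-KO were Il6 (-2.43), Cxcl2 (-1.21) and Icam1 (-1.06), and the 2 lower in LATS1/2-Sox9-KO were Icam1 (-1.84) and the selectin gene Sele (-2.14), all named after their values were seen. Icam1 in LATS1/2-KO was -0.84 and not called without LATS1/2-KO replicate 2.

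Between the labelled deletions, 4 of these 22 target genes were higher in LATS1/2-Sox9-KO and 1 was lower, beside 1.55% and 2.16% of all genes, and they too were named after their values were seen. Nos2, which encodes inducible nitric oxide synthase, was at 189, 78 and 61.1 in LATS1/2-KO and 6359, 2019 and 1135 in LATS1/2-Sox9-KO, a log2 fold change of 4.87 ± 0.73 (edgeR adjusted p = 0.00809). Ccl5 (2.84), Cxcl10 (2.02) and the neutrophil chemokine gene Cxcl5 (2.86) were the others, and the iron-binding lipocalin gene Lcn2 was lower (-1.31). For Nos2, Ccl5 and Cxcl10, as for Tnf and Tnfsf15, LATS1/2-Sox9-KO replicate 1 was the highest library of all 9. Without it the differences were 3.88 for Nos2 (edgeR adjusted p = 0.0113), 2.05 for Ccl5 (0.0413) and 1.23 for Cxcl10 (0.0146), all still called. Lcn2 was not called there (-1.36, 0.0992), nor in 5 of the other fits without 1 library. Its values in these fits were -1.36 to -1.10. Over the fits without 1 library, 1 to 4 of these genes were higher, and without LATS1/2-KO replicate 3 Nos2 was the only one, with Ccl5 at 2.86 (edgeR adjusted p = 0.0746), Cxcl10 at 2.01 (0.0906) and Cxcl5 at 2.71 (0.085). Without LATS1/2-Sox9-KO replicate 2, Cxcl10 (2.25, edgeR adjusted p = 0.0522) and Cxcl5 (2.77, 0.0723) were also not called. Nor were Cxcl10 without LATS1/2-KO replicate 2 (2.08, 0.0596) and Cxcl5 without LATS1/2-Sox9-KO replicate 3 (2.52, 0.0587). Where Ccl5, Cxcl10 or Cxcl5 was not called, its log2 fold change stayed about as large as in the main fit.

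The adaptors and the death machinery of the receptors had calls in both directions. Of 22 tested, 3 were called higher and 2 lower in LATS1/2-KO, and 3 higher and 3 lower in LATS1/2-Sox9-KO, beside 17.1% higher and 17.5% lower of all genes in the first comparison and 17.8% and 19.6% in the second. Their medians were -0.34 and 0.02. Over the fits without 1 library, 3 to 4 of the list were higher and 2 to 4 lower in LATS1/2-KO. The counts were 4 and 4 without LATS1/2-KO replicate 1. In LATS1/2-Sox9-KO they stayed at 3 and 3. Mlkl, the executor of necroptosis, went from 441, 471 and 418 in control to 2125, 1856 and 1915 in LATS1/2-KO and 7156, 5411 and 4085 in LATS1/2-Sox9-KO. The 3 groups rose in order without overlap, with 2.15 ± 0.19 (edgeR adjusted p = 1.34e-05) and 3.65 ± 0.20 (edgeR adjusted p = 8.68e-07) against control and 1.50 ± 0.18 (edgeR adjusted p = 0.00403) between the labelled deletions. Birc3, which encodes the ubiquitin ligase cIAP2, fell from 10304, 9150.2 and 7128 in control to 2832, 2088 and 2464 in LATS1/2-KO and 3381, 2056 and 2213 in LATS1/2-Sox9-KO, -1.85 ± 0.22 (edgeR adjusted p = 6.99e-05) and -1.80 ± 0.22 (edgeR adjusted p = 6.78e-05). Traf5, an adaptor, fell from 166, 156 and 102 to 24.1, 22 and 42 and 30.6, 19.9 and 26.4, -2.26 ± 0.38 (edgeR adjusted p = 0.000676) and -2.46 ± 0.39 (edgeR adjusted p = 0.000383). Neither gene's control libraries overlapped the others. Other calls, named after their values were seen, were Traf4, higher in LATS1/2-KO (1.14), the initiator caspase gene Casp8, higher in LATS1/2-Sox9-KO (1.16), and Birc2, lower there (-1.28). Genes of the first signalling complexes, Fadd, Tradd, Ripk1, Ripk3 and Cflar, were not called in any comparison.

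**Figure D5:**
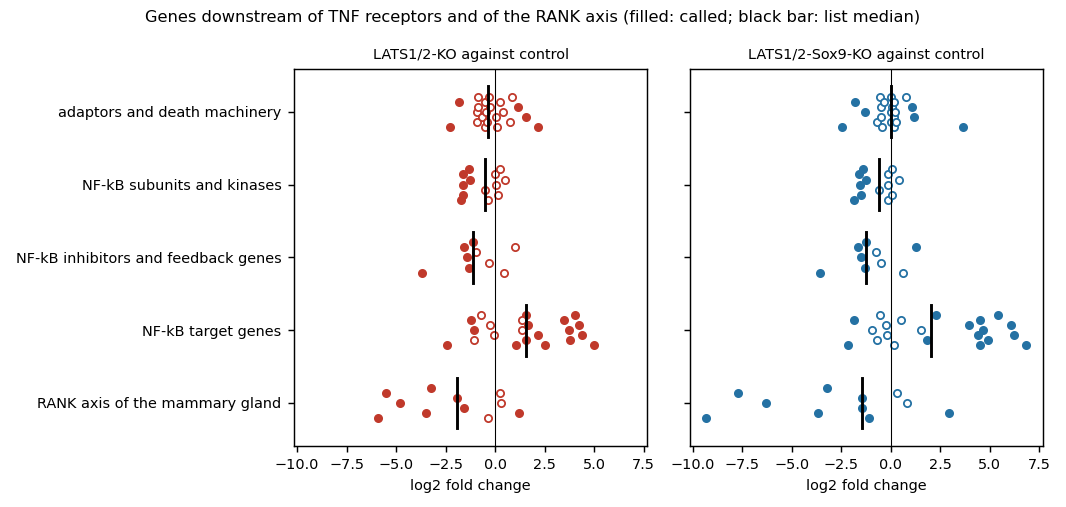
Log2 fold change of each tested gene of 5 lists in LATS1/2-KO (left) and LATS1/2-Sox9-KO (right) against control, with filled points for calls and a black bar at each list's median. The target genes have the medians farthest above 0, 1.56 and 2.07, and the NF-kB subunit, NF-kB inhibitor and RANK axis lists have medians below 0.

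Genes of other cell types that could sit among sorted EYFP+ cells were read beside these results, since several members are best known from leukocytes. The 4 pan-leukocyte markers summed to between 89.6 and 160.1 normalized counts in control libraries, 95.8 and 441 in LATS1/2-KO and 96.7 and 314 in LATS1/2-Sox9-KO, and none of the 4 was called. Their most abundant gene, Ptprc, was at most 166. For T and NK cells the 10 markers summed to at most 37.3 in any library, with Trac the most abundant and Cd3e and Ncr1 at 0 in all 9. The 6 B cell markers summed to at most 86.2, with Cd79a the most abundant, Ms4a1 at 0 in all 9 and Cd79b called lower under both labels. The 10 markers of macrophages and dendritic cells summed to between 813 and 1221 in control, 2173 and 4687 in LATS1/2-KO and 3741 and 5195 in LATS1/2-Sox9-KO, with none at 0 everywhere. Most of that rise was Csf1r, from 208, 128 and 139 in control to 2804, 2374 and 1753 in LATS1/2-KO and 2716, 3122 and 3875 in LATS1/2-Sox9-KO, while Cd68, at 406, 404 and 398 in control, 315, 393 and 229 in LATS1/2-KO and 358, 327 and 245 in LATS1/2-Sox9-KO, did not pass. C1qa and Fcgr1 were called higher under both labels too, and Adgre1 and Mrc1 in LATS1/2-Sox9-KO, and their part in the family's results was not tested. The 5 neutrophil markers summed to at most 58.3, with S100a8 the most abundant and called higher in LATS1/2-Sox9-KO.

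Stromal markers moved with the groups as well. The 5 fibroblast markers summed to between 2004 and 8510 in control libraries, with replicate 3 the highest, to between 592 and 1997 in LATS1/2-KO and to between 98.4 and 674 in LATS1/2-Sox9-KO, neither overlapping control. The sums are mostly Dcn, the most abundant, which was called lower under both labels (-2.24 and -4.79), while the median log2 fold changes of the list were 0.94 and 0.53. Pdgfra was also called lower in LATS1/2-Sox9-KO, and Lum was called higher in LATS1/2-KO (2.62). The 4 adipocyte markers, led by Lpl, summed to 160.5, 2394 and 1228 in the LATS1/2-KO libraries, to 313, 727 and 500.1 in the LATS1/2-Sox9-KO libraries and to between 51.0 and 228 in control. Adipoq, a defining adipocyte gene, was at 2.01, 294 and 163 in the LATS1/2-KO libraries and 0, 0 and 3.73 in control. Adipoq (6.87), Cidec (8.61) and Lpl (2.58) were called higher in LATS1/2-KO, and Adipoq (5.17) and Cidec (6.75) in LATS1/2-Sox9-KO. Among the LATS1/2-KO libraries, every member called higher under both labels (Tnfsf4, Tnfsf13b, Tnfsf18, Tnfrsf10b, Tnfrsf11b, Tnfrsf22, Tnfrsf23 and Tnfrsf26) was highest in replicate 1, and so was Ltb. In that library the adipocyte sum was within the control range. The sums of the macrophage and dendritic cell markers, of the pan-leukocyte markers and of the hormone-sensing markers were the highest of the 3, at 4687, 441 and 19239. The 6 endothelial markers, led by Pecam1, summed to between 268 and 794 over all 9 libraries. Kdr was called higher under both labels (2.43 and 3.37) and Tek lower in LATS1/2-Sox9-KO (-1.48). Of the 6 basal and myoepithelial markers, 2 were called higher and 2 lower in LATS1/2-KO, and 3 and 3 in LATS1/2-Sox9-KO. Krt14 and Acta2 were higher under both labels, and the 6 summed to between 3881 and 5117 in control and 121764 and 356134 in the labelled deletion libraries, while Trp63, a defining basal transcription factor (-4.82 and -4.19), and the myosin gene Myh11 (-2.21 and -1.23) were lower. The 6 luminal progenitor markers (Kit, Elf5, Aldh1a3, Cd14, Itgb3, Ehf) summed to 78009, 76408 and 42367 in control, 64337, 95392 and 65817 in LATS1/2-KO and 44075, 43802 and 42882 in LATS1/2-Sox9-KO libraries, with Aldh1a3 the most abundant. None of the 6 was called in LATS1/2-KO, while Kit, Elf5 and Cd14 were called lower in LATS1/2-Sox9-KO against control. In LATS1/2-Sox9-KO against LATS1/2-KO all 6 had negative log2 fold changes, with a median of -1.11, and Cd14 was called lower. Whether any of these populations took part in the changes of the family was not tested.

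Of 6 superfamily genes that carry other names, 3 reached the filter. The ectodysplasin receptor gene Edar was higher under both labels at low counts, 13 ± 10.3 (SD, n = 3) in control, 97.5 ± 61.6 in LATS1/2-KO and 55.3 ± 14.1 in LATS1/2-Sox9-KO, and the receptor gene Relt was lower in LATS1/2-Sox9-KO, 106 ± 6.87 against 365 ± 124. Both were named after their values were seen. The call of Edar in LATS1/2-Sox9-KO (log2 fold change 2.06) was lost without control replicate 1 and without LATS1/2-Sox9-KO replicate 1 or 2. The value in those fits stayed at 1.95 to 2.32, with adjusted p by edgeR up to 0.073. Relt was called in LATS1/2-KO too without control replicate 3 (-1.22) or LATS1/2-KO replicate 1 or 3 (-1.11 and -1.07). Eda was not called, and Cd40lg was at 0 in every library.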

How the data were processed

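RNA of sorted EYFP+ mammary cells was measured in 9 libraries, 3 per genotype, and samples were grouped by their labelled genotype. The authors deposited raw read counts per gene: per their methods and processing notes, FastQC 0.11.7, STAR 2.6.0c, the mm10 genome and featureCounts of Subread 1.6.2 with Ensembl genes were used, and uniquely aligned proper pairs were counted for non-mitochondrial genes. The stated counting setting used strand, while the kit named does not mark it, so antisense partners cannot be told apart.

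Gene names and GRCm38 coordinates came from GENCODE M21, which held 55190 of the 55450 identifiers, and the rest took 0.00651% of counts. Promoter sequences came from RefSeq (GRCm38.p6). Counts were tested in R 4.3.3 with edgeR 4.0.16 (limma 3.58.1): filterByExpr, TMM, a 3-group quasi-likelihood fit of all 9 libraries, and Benjamini-Hochberg adjustment over the 19357 genes kept. Standard errors were the absolute log2 fold change divided by the square root of F. DESeq2 1.42.0, other scalings and filters, 2 groups alone, a replicate block, glmTreat, leaving out each library, and a GC offset chosen after seeing the data were alternatives, and for the pathway genes outside the family leaving out each library was added after seeing the data. On simulated counts for LATS1/2-KO against control, edgeR recovered 85% of 200 changed genes and called 4 unchanged genes among 17985 tested, and DESeq2 recovered 92% and called 41 among 19357. Replicates differed far beyond sampling noise (chi-square per gene at least 17.9), so none was counted as a duplicate. Totals were 44167762 to 61967651 counts per library, and exact intervals and the limits set by low counts cover counting error only. With 3 libraries against 3, a two-sided permutation test of a single gene cannot go below p = 0.1, so it was not used.

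The members and all gene lists were chosen with earlier results of these data known. Values in every library are given for members called in any comparison whose mean normalized count in the highest group reached 100, and for Tnf, Tnfsf10, Tnfsf11, Tnfsf12, Fasl, Tnfrsf1a, Tnfrsf10b, Tnfrsf11a, Tnfrsf11b, Tnfrsf12a and Fas whatever their values. From the other lists the rule names the called genes with the 3 largest absolute log2 fold changes in LATS1/2-KO that reached a mean of 100 in the higher group, and all 11 genes of the RANK list. The values of 1 gene in the list of adaptors and death machinery are not reported here.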

Additional observations from a re-analysis of the deposited data

How the results depend on the processing

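Over the 10 alternatives other than leaving out a library, 6 to 10 members were higher and 8 to 10 lower in LATS1/2-KO than in control, and 7 to 11 higher and 7 to 10 lower in LATS1/2-Sox9-KO. Leaving out single libraries gave 8 to 9 and 9 to 11 in LATS1/2-KO, and 8 to 11 and 8 to 10 in LATS1/2-Sox9-KO. Between the labelled deletions, 2 to 6 members were higher without 1 library, with 2 left without LATS1/2-KO replicate 3 or LATS1/2-Sox9-KO replicate 2 and 6 without LATS1/2-KO replicate 1. With glmTreat, 0 were higher. No setting gave a lower member there. Over all genes, glmTreat called 1962 higher and 2043 lower in LATS1/2-KO, 2240 and 2468 in LATS1/2-Sox9-KO, and 18 and 14 between the labelled deletions against 301 and 418, where DESeq2 called 489 and 744 and the fits without 1 library 121 to 497 and 78 to 582.

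Most calls that depended on a setting are given beside each member. In addition glmTreat, which asks for a fold above 2, ended the calls of Tnfrsf1b (adjusted p = 0.448), Ltb (0.45), Tnfsf13os (0.159) and Tnfsf13b (0.0846) in LATS1/2-KO and of Tnfsf13b (0.113), Tnf (0.436), Tnfsf15 (0.177) and Tnfrsf14 (0.119) in LATS1/2-Sox9-KO, and the GC offset ended that of Tnfsf15 (1.34, adjusted p = 0.0538) and made Fas a call there (-1.20). Values near 0 changed sign. Fas in LATS1/2-KO (0.022) was -0.0082 by DESeq2, -0.0072 with RLE factors, -0.034 with the replicate block and -0.28 with the GC offset. Tnfrsf11a in LATS1/2-Sox9-KO (0.034) was -0.032 with the GC offset, which also turned the sign of Ltbr under both labels (0.028 and 0.21) and of Tnfrsf4 in LATS1/2-Sox9-KO (0.04). Between the labelled deletions Tnfrsf12a (-1.3e-05) was 0.0085 by DESeq2, 0.007 with RLE factors, 0.00057 with TMM factors that left out the 100 most counted genes and 0.033 without a filter, and Tnfrsf21 (0.011) was -0.042 with upper-quartile factors, -0.00058 with at least 10 counts in every library and -0.032 with the GC offset. Without single libraries, values ran from -0.34 to 0.25 for Fas and -0.88 to 3.09 for Tnfsf11 in LATS1/2-KO, from -1.07 to 1.56 for Tnfsf11 and -0.38 to 0.48 for Tnfrsf11a in LATS1/2-Sox9-KO, and, between the labelled deletions, from -0.069 to 0.078 for Tnfrsf12a, -0.21 to 0.18 for Tnfrsf21, -0.63 to 0.053 for Tnfsf10, -2.04 to 0.29 for Tnfsf11, -0.12 to 0.45 for Tnfsf13 and -0.29 to 0.96 for Tnfsf15. The causes were not tested.

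The labels give the groups the same replicate numbers, but same-numbered libraries did not deviate together in every pair. Over 14438 genes their correlations were -0.082, 0.03 and -0.106 for LATS1/2-KO with control, 0.054, 0.04 and 0.036 for LATS1/2-Sox9-KO with control, and 0.15, 0.323 and -0.042 for the labelled deletions, where libraries 1 and 2 correlated best with their own number and library 3 did not. With the replicate block, 8 members were higher and 10 lower in LATS1/2-KO, 9 and 10 in LATS1/2-Sox9-KO, and 3 and 0 between the labelled deletions, where Tnfrsf26 was 2.82 (edgeR adjusted p = 0.0566). The block also ended the call of Tnfsf15 (1.42, edgeR adjusted p = 0.0561) and that of Ltb (1.10, 0.0522), and made Lta a call in LATS1/2-Sox9-KO (-2.51, 0.0387).

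Depth limits the 7 members left out by the filter and the members with few control reads, Tnfsf4, Tnfsf18 and Tnfrsf26. Their calls against control held under every alternative that gave a value, while over those alternatives the log2 fold change in LATS1/2-KO ran from 6.49 to 7.16 for Tnfsf4, 2.51 to 4.37 for Tnfsf18 and 4.12 to 7.61 for Tnfrsf26. With 3 libraries a group, a p that misses the threshold does not show that levels were equal.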
